A study of Mus musculus with 6 samples.

Results

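Neurexins, neuroligins and other synaptic adhesion molecules hold the presynaptic and the postsynaptic membrane together across the synaptic cleft. CpG methylation was examined at 7 of their genes in the dentate gyrus of mice. They comprised the neurexins Nrxn2 and Nrxn3, the neuroligins Nlgn1 and Nlgn2, the leucine-rich repeat protein gene Lrrtm1, the neurexin relative Cntnap2 and the neural cell adhesion molecule Ncam1. A site was assigned to a gene when it lay between 1 kb upstream of the gene and its end in the GENCODE M21 annotation (GRCm38, which is the same sequence as mm10). This gave 696 of 890041 CpG sites. Methylation levels came from reduced representation bisulfite sequencing (RRBS), in which DNA is cut at CCGG and bisulfite converts unmethylated cytosines. Female C57BL/6JRj mice aged 4.5 months had lived in standard housing (STD, n = 3) or in an enriched environment (ENR, n = 3), and each library came from the micro-dissected dentate gyrus of 1 mouse. ENR mice shared a large enclosure with toys and tunnels that were rearranged, so that effects of the common enclosure and of enrichment cannot be told apart. Each value is the percentage of reads over 1 cytosine that were methylated. The number of reads behind a value is unknown beyond the minimum of 10 that the study set.

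Neurexins sit in the presynaptic membrane and bind neuroligins, LRRTM proteins and other partners on the postsynaptic side. Neurexin genes have a promoter at their beginning for long alpha forms and an internal promoter for short beta forms, and alternative splicing multiplies the variants. Neuroligin 1 is found mainly at excitatory and neuroligin 2 at inhibitory synapses, whereas LRRTM1 is a neurexin ligand of excitatory synapses. CNTNAP2, also called CASPR2, belongs to the neurexin superfamily and holds potassium channels next to the nodes of Ranvier. NCAM1 mediates adhesion between like molecules, and its polysialylated form is a mark of immature granule neurons of the dentate gyrus. CpG-rich promoters are usually free of methylation, while CpGs inside transcribed genes are often methylated. Promoter methylation commonly accompanies silencing, and the effect of methylation inside genes is less uniform.

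The following sequences show where the findings lie. They were read from GRCm38 on the strand of the gene, and capitals mark the CpGs with at least 1 covered cytosine. The first is an intron of Nrxn2 (chr19:6451737-6451919, + strand), where the largest difference between housing groups at a single site of the 7 genes was found, at the last CpG shown.
Nrxn2 intron: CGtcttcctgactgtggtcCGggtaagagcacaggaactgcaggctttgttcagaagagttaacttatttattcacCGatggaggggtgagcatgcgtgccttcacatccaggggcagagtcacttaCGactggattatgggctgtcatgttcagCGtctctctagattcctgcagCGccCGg
The next 3 come from the stretches of neighbouring sites with the lowest p-values. They are an intron of Ncam1 (chr9:49595777-49595832, - strand), a part of the stretch upstream of Nlgn2 (chr11:69838438-69838513, - strand) and a coding exon of Nrxn3 (chr12:89254895-89254946, + strand).
Ncam1 intron: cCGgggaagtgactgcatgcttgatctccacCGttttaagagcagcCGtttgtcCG
Nlgn2 upstream: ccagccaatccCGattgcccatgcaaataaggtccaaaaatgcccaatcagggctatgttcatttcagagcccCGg
Nrxn3 coding exon: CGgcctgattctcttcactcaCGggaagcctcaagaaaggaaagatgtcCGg
Another 4 stretches show the extremes of level. A coding exon of Nlgn1 was methylated although it lay 280 bp inside an annotated start (chr3:26133411-26133477, - strand). The 250 bases before the last start of Nrxn3 (chr12:89812233-89812482, + strand) were nearly free of methylation. An intron of Cntnap2 (chr6:45443771-45443879, + strand) was highly methylated, and the beginning of the covered coding sequence of Lrrtm1 (chr6:77243614-77243813, + strand) was again nearly free of it.
Nlgn1 coding exon: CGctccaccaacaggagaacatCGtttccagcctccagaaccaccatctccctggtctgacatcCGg
Nrxn3 before the last start: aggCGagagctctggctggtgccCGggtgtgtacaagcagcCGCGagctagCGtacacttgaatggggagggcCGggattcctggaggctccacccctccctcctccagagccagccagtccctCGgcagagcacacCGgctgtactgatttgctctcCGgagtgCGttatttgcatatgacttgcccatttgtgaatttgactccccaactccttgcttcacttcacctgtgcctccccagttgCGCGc
Cntnap2 intron: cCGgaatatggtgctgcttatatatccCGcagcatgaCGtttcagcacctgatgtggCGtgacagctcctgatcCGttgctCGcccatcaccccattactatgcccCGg
Lrrtm1 coding exon: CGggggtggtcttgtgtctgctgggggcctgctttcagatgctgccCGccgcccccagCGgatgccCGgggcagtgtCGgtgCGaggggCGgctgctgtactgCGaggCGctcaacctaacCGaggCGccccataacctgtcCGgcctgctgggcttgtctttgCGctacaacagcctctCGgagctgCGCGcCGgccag
The CpG-dense sequences of Lrrtm1 and Nrxn3 averaged 1.67% and 2.17% over the 6 libraries and the sequences of Cntnap2 and Nlgn1 95.0% and 93.0%. CCGG, a motif that reads the same on both strands, surrounded 227 of the 696 sites (32.6%, against 29.7% of all covered sites), and each of the 66 covered stretches held at least 1. Coverage therefore followed the enzyme site.

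The library numbered 3 was the least methylated one of each group. The mean over all sites was 24.3%, 24.2% and 22.5% in STD 1 to 3 and 24.2%, 23.9% and 21.3% in ENR 1 to 3. At the 93 sites of the 7 genes with a mean of 20% to 80%, STD replicate 3 had 46.2% (55.9% and 51.0% in the other two) and ENR replicate 3 had 34.1% (51.0% and 52.2%). The labels name no batch. Start regions of the granule neuron genes Prox1, Calb1 and Neurod1 had means of 1.497% to 2.17%, those of 4 general neuronal genes 2.19% to 19.3%, of 4 astrocyte genes 1.34% to 38.1%, of the microglial genes Aif1 and P2ry12 59.99% and 20.4%, and of the myelin gene Mbp 5.92%. For Rbfox3, Aldh1l1 and Mbp, which had 2 start regions each, the lower one was taken. Only Calb1 among these 14 genes had groups that did not overlap, lower in ENR (5.69% of all start regions), and the part of cell composition in the results below was not tested.

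The first question was how strongly each gene was methylated and whether housing changed its mean. Levels spanned the whole range. Cntnap2 was almost fully methylated and Lrrtm1 almost unmethylated, and no gene passed the test. All 7 means were lower in ENR, by 0.162 to 2.02 percentage points, each less than the larger of the SDs of STD and ENR, and the groups overlapped in all 7. Over all 22955 genes with at least 3 sites, 57.6% had a lower mean in ENR, and limma called 0 of the 7 and 0.0% of all genes (adjusted p = 1.00 for each of the 7). At an unadjusted p under 0.05, 0 of the 7 and 3.86% of all genes were found.

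Among the presynaptic genes, Nrxn2 (chr19:6418731-6544169) had 178 covered sites. Its mean was 17.0%, 15.2% and 16.1% in STD and 15.5%, 15.9% and 14.6% in ENR. The difference was -0.746 ± 1.06 percentage points (SE), and the values of both groups interleaved. Nrxn3 (chr12:88722876-90334935), a gene of 1612 kb against 125.4 kb for Nrxn2, had 99 sites. STD mice had 34.4%, 30.8% and 29.0% and ENR mice 31.4%, 33.8% and 28.0%, a difference of -0.296 ± 2.55 points. In both neurexins the range within each group exceeded the difference between groups.

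On the postsynaptic side, Nlgn1 (chr3:25426215-26332460) had 45 sites with means of 42.5%, 42.5% and 37.6% in STD and 38.6%, 40.4% and 37.7% in ENR (-2.02 ± 2.60 points). Nlgn2 (chr11:69823122-69837784), a compact gene, had 71 sites with 10.3%, 11.03% and 10.03% in STD and 11.2%, 9.83% and 9.69% in ENR (-0.224 ± 0.786 points). The lower level of Nlgn2 stood beside a different placement of the covered sites, of which 62 of 71 in Nlgn2 and 26 of 45 in Nlgn1 were within 1 kb of a start. Lrrtm1 (chr6:77242689-77257791) had 98 sites with 1.55%, 1.49% and 1.34% in STD and 1.14%, 1.75% and 1.01% in ENR (-0.162 ± 0.333 points). Lrrtm1 lies inside an intron of Ctnna2, so that all 98 sites belong to both genes.

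Cntnap2 (chr6:45059357-47304213), with 84 sites, was the most methylated of the 7 and stood at the 91.3 percentile of all genes. STD mice had 84.3%, 83.7% and 85.4% and ENR mice 84.1%, 84.1% and 80.1%, a difference of -1.70 ± 2.34 points that came from ENR replicate 3. Without that library it was -0.373 points. Ncam1 (chr9:49502136-49798925) had 121 sites with 13.9%, 14.9% and 11.9% in STD and 15.5%, 12.49% and 8.23% in ENR (-1.50 ± 1.98 points). Here too ENR replicate 3 was far below the others, and without it the difference became 0.423 points. ENR replicate 3 had the lowest value of the 6 libraries in 6 of the 7 genes, against 37.7% of all genes. Without it 4 of the 7 means were lower in ENR and 44.5% of all genes. With quantile normalization, which gives all libraries the same distribution, 3 of the 7 means were lower in ENR and 43.1% of all genes. With medians over sites, 2 of the 7 were lower in ENR and 29.5% of all genes, and the difference was 0 in Lrrtm1, Ncam1 and Nlgn2. The shared direction of the 7 genes thus depended on this library, on the scaling and on the summary over sites. Single differences also moved without a change of direction, to -0.387 points in Nrxn2 and -0.0154 in Lrrtm1 without ENR replicate 3 and to -0.320 in Nrxn2 without STD replicate 1. They grew to -1.19 points in Nrxn2 without STD replicate 2 and to -0.389 in Lrrtm1 without ENR replicate 2. In Nlgn1 the difference was -3.64 points without STD replicate 3 and -1.21 and -1.198 without STD replicate 1 or 2.

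**Figure D1:**
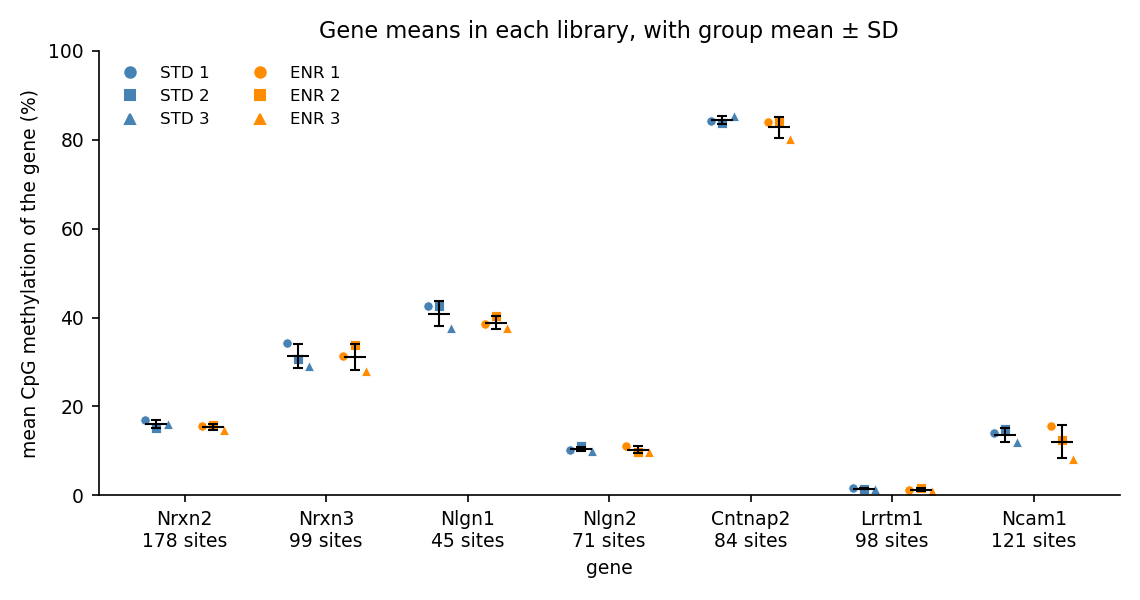
Mean CpG methylation of each gene (y axis, %) in each library, with STD in blue, ENR in orange and symbols for replicates 1 to 3. Black bars give group means ± SD (n = 3). The groups overlap in all 7 genes, and levels run from 1.38% in Lrrtm1 to 83.6% in Cntnap2.

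The next question was whether single transcription starts differed. Start regions were taken as 1 kb on each side of a start, and overlapping ones of a gene were merged and numbered along it. The 7 genes had 27 start regions, of which 15 held covered sites and 13 at least 3. Most were nearly free of methylation in both groups, with means of 1.06% to 3.21% in 10 of the 13. None was called (limma, 0.0% of all 22212 that varied; adjusted p = 0.999 for each), and 7 were lower and 6 higher in ENR, against 52.7% lower among all start regions. At an unadjusted p under 0.05, 0 of the 13 and 4.49% of all start regions were found.

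Nrxn2 showed 3 of these regions. The first, which holds the starts of transcripts with coding sequences of 4509 to 5109 nt, had 12 sites and means of 1.52% ± 0.810 in STD and 1.15% ± 0.696 in ENR (SD, n = 3). Region 2 holds further starts of coding transcripts, of up to 5130 nt. Its sites, 9.51 kb behind the first start, lay in a coding exon and were methylated at 10.1% ± 2.57 and 10.9% ± 8.97, with 21.04% in ENR replicate 3 and 4.17% to 7.33% in the other ENR mice. Region 7 belongs to the internal start of the short coding transcripts (1980 and 1059 nt), as beta forms have. It had 0.930% ± 0.232 in STD and 1.19% ± 0.779 in ENR. Both the first and the internal start of Nrxn2 were therefore close to 0 in all mice.

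In Nrxn3 the internal start of the short coding transcripts (1701 and 1290 nt, region 5) included the sequence printed above and had 39 covered sites. STD mice had 1.77%, 1.73% and 1.76% and ENR mice 2.62%, 2.45% and 1.28%. STD values were nearly identical, and ENR values lay on both sides of them (0.362 ± 0.534 points, SE). None of the transcripts that begin in the first start region of Nrxn3 is annotated as protein coding. This region had 10 sites with 0.256%, 0.00% and 2.0% in STD and 0.00%, 7.01% and 2.94% in ENR. This difference of 2.56 ± 1.60 points came mainly from ENR replicate 2. It was 0.718 points without that library and 4.22 without ENR replicate 1 (limma unadjusted p = 0.0160, adjusted p = 0.909). The starts of the longer Nrxn3 coding transcripts between them had no covered site.

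Nlgn1 had 3 start regions with covered sites. The first 2 were nearly unmethylated, at 1.45% ± 1.52 and 1.34% ± 0.582 in STD and 1.32% ± 1.39 and 1.03% ± 1.19 in ENR. The third had 3 sites in the coding exon printed above and was methylated at 95.2%, 94.6% and 89.9% in STD and 98.2%, 97.9% and 82.4% in ENR. It was at the 96.4 percentile of all start regions. The RRBS sites of this region lay in the exon and not at the start itself, whose own methylation was not measured.

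Nlgn2 region 1, around the most upstream start, was the only one of the 13 in which the groups did not overlap. Its 54 sites averaged 2.17%, 1.49% and 1.70% in STD and 1.14%, 0.710% and 1.38% in ENR. The difference of -0.713 ± 0.397 points did not pass the test (limma unadjusted p = 0.112, adjusted p = 0.999; two-sided exact permutation test p = 0.1, the smallest that 3 against 3 can give). The difference was -0.385 points with quantile normalization and -0.389 with 500 bp on each side. Such separation, lower in ENR, was found in 5.69% of all start regions. Region 2 of the same gene had 8 sites with 13.5% ± 2.25 in STD and 16.9% ± 7.06 in ENR, and ENR mice spanned 9.25% to 23.2%. The difference of 3.44 points was 0.309 without ENR replicate 2 and 7.27 without ENR replicate 3 (limma unadjusted p = 0.04999, adjusted p = 0.906).

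The single covered start regions of Lrrtm1 and Ncam1 had 67 sites each. Lrrtm1 had 1.12% ± 0.314 in STD and 1.20% ± 0.754 in ENR, and Ncam1 1.63% ± 0.322 and 1.55% ± 0.341. The start of Cntnap2 had 4 sites with 3.31% ± 1.57 and 3.10% ± 3.44. Over all libraries the start of Cntnap2, a gene methylated along its body, was at 3.21%, above the 1.16% to 2.03% of the first start regions with sites in the other 6 genes. Differences at these 3 starts were between -0.214 and 0.0777 points.

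**Figure D2:**
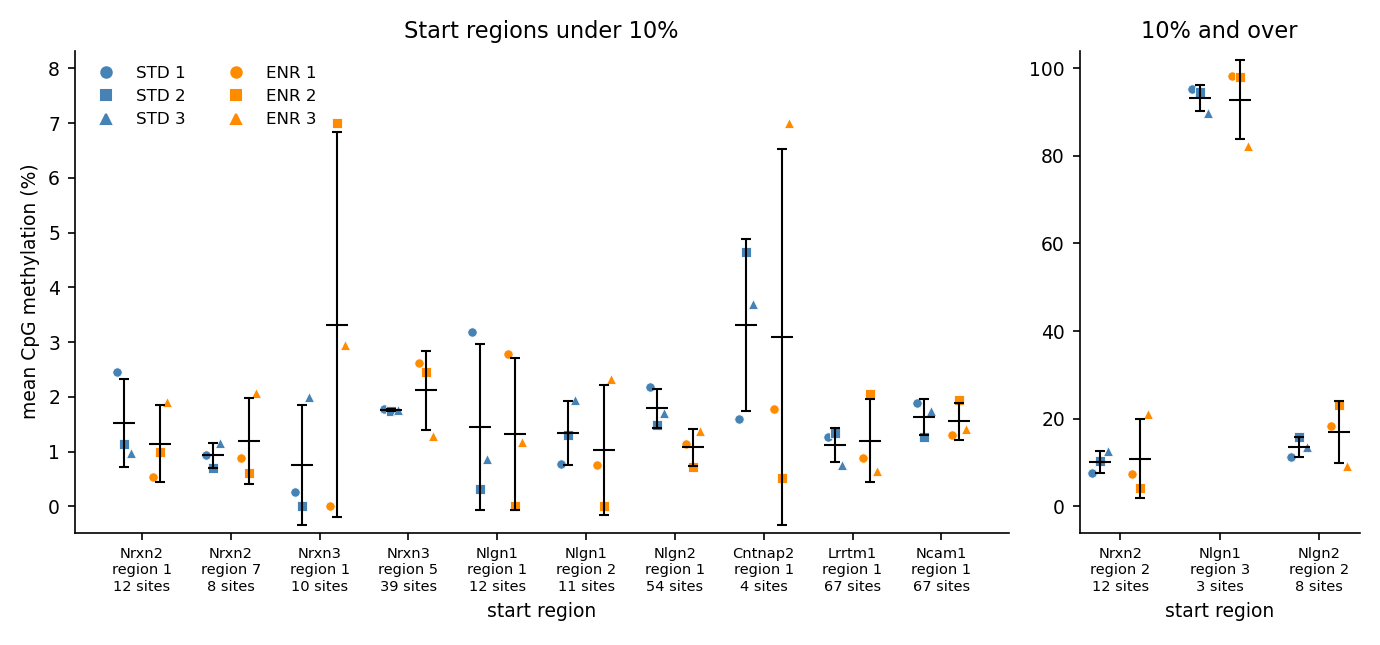
Mean CpG methylation (y axes, %) of the 13 start regions with at least 3 sites in each library, with STD in blue and ENR in orange and black bars for group means ± SD (n = 3). The left panel ends near 8% and the right panel near 100%. Only in Nlgn2 region 1 do all STD points lie above all ENR points.

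Levels within the genes depended on position. The 309 sites within 1 kb of a start averaged 3.18% in STD and 3.38% in ENR, the 96 other exonic sites 32.1% and 31.5%, and the 291 other sites in introns or upstream 45.9% and 43.8%. Over the 6 libraries, sites less than 250 bp from a start averaged 1.95%, those 2000 to 5000 bp away 21.3%, and those over 50000 bp away 77.7%. Genes contributed unequally to these distances. Of the 123 sites over 50000 bp away, 71 belonged to Cntnap2 and averaged 90.5%, whereas the 14 of Ncam1 averaged 35.6%, and 61 of the 67 sites at 2000 to 5000 bp belonged to Nrxn2. Of the 696 sites, 432 (62.1%) averaged under 10% and 118 (17.0%) over 80%, close to 63.7% and 15.5% of all sites. The mixture differed between genes. In Cntnap2, 67 of 84 sites exceeded 80%, whereas in Lrrtm1 96 of 98 and in Nlgn2 59 of 71 were under 10%, and 188 sites of the 7 genes were at 0 in all libraries.

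Sites at most 100 bp apart were joined to covered stretches, and the 7 genes had 66 stretches of at least 3 sites. Of these, 30 averaged under 10% and 17 over 80%. Cntnap2 held 10 of the 17 high ones, spread over the gene from 384.5 to 2063 kb behind the first start and all but 1, which was a coding exon, in introns, and its last stretch, at 2227 kb, was intermediate (43.6% in STD and 36.4% in ENR). Nrxn2 had no stretch over 80%. Its highest stretches, 62.6 and 64.6 kb behind the first start, had 76.5% and 68.1% in STD. The 8 Nrxn2 stretches from the internal start to 95.1 kb, most of them intronic, had levels of 0.930% to 20.3% in STD. Nrxn3 had 3 stretches over 90% in STD between its nearly unmethylated first and last starts, and 2 intronic ones at 27.7% and 24.95%. The stretch that ended 1519 bp behind its last start was at 56.4% in STD. Ncam1 had 2.59% or less in the 4 stretches around its start and 97.8% at 87.8 kb in STD. Introns of Ncam1 also held low stretches of 8.63% at 70.5 kb and 10.2% at 203.1 kb.

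**Figure D3:**
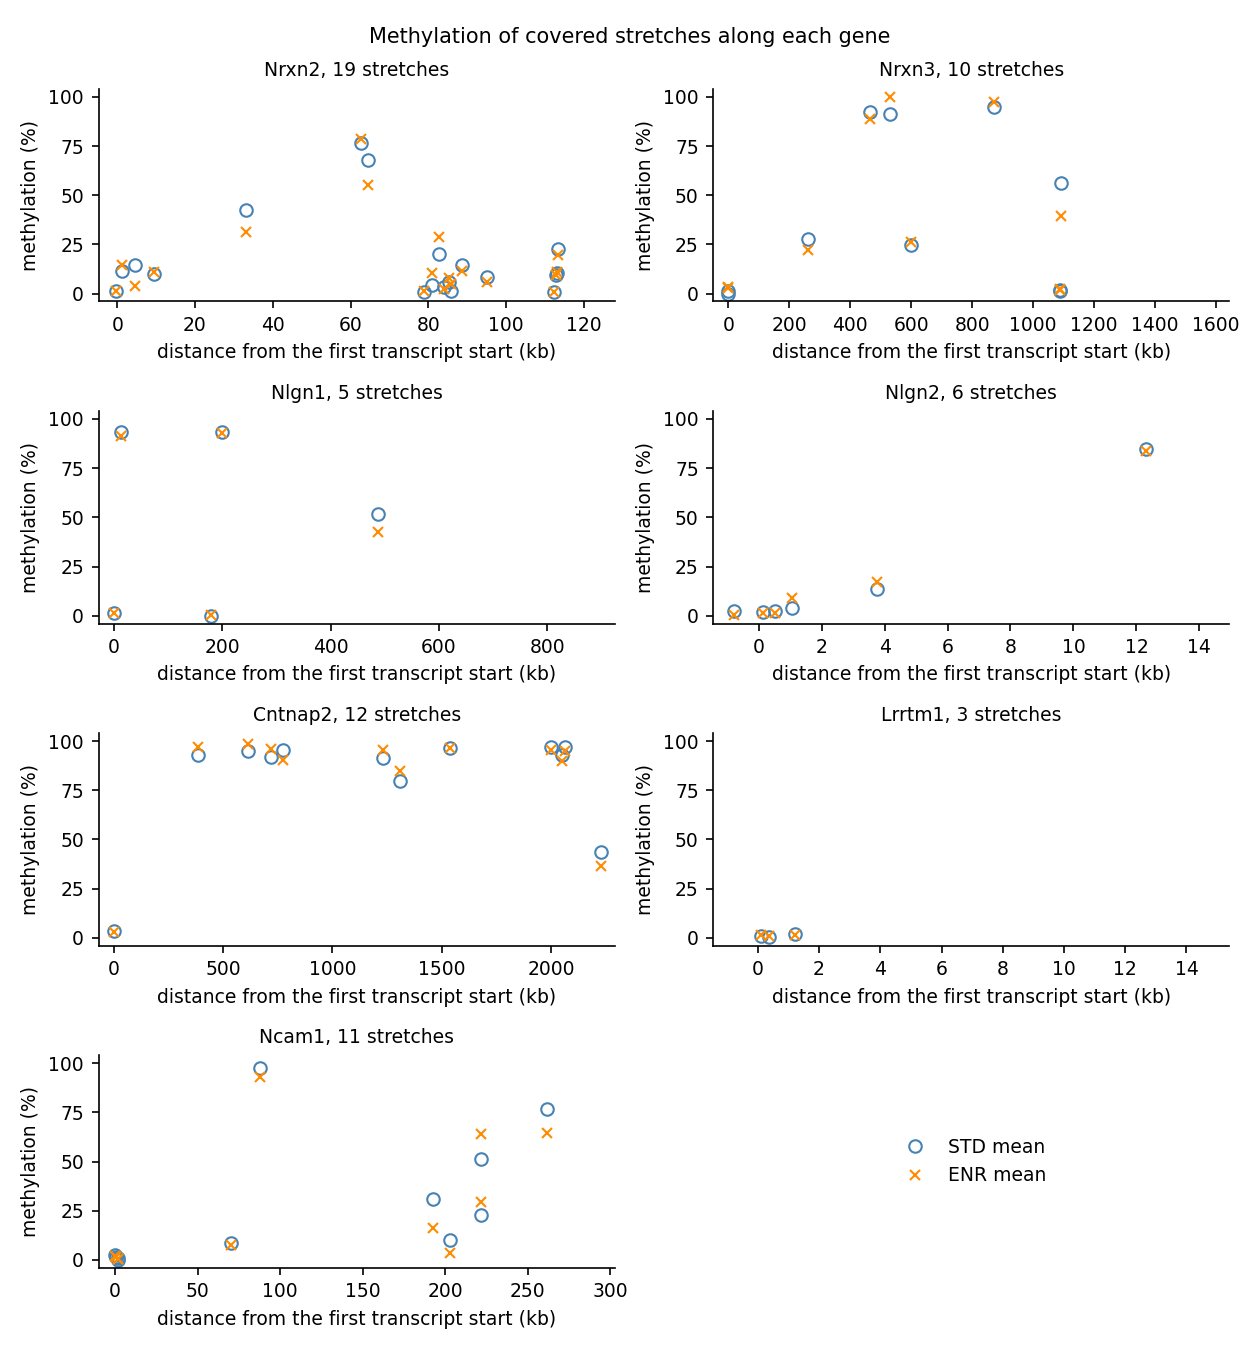
Mean methylation of each covered stretch (y axes, %) against its distance from the first transcript start of the gene (x axes, kb), with open blue circles for the STD mean and orange crosses for the ENR mean (n = 3 each). Stretches at the first starts are near 0, Cntnap2 is high along its body, and Lrrtm1 is covered only close to its start.

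Stretches with a higher ratio of observed CpGs to those that base composition predicts were less methylated. The ratio was taken over the stretch and 100 bp on each side, so that flanking bases make up most of it for short stretches. The ratio reached 0.6 in 20 stretches, which had a median level of 1.57%, and the other 46 had 25.8%. Over the 66 stretches Spearman's rho was -0.40 and Pearson's r -0.28, and over all stretches -0.54 and -0.42. These are descriptions, since stretches of a gene share libraries and neighbourhood. Exceptions included the Cntnap2 intron printed above, with a ratio of 0.727 over this wider window and a mean of 95.0%.

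**Figure D4:**
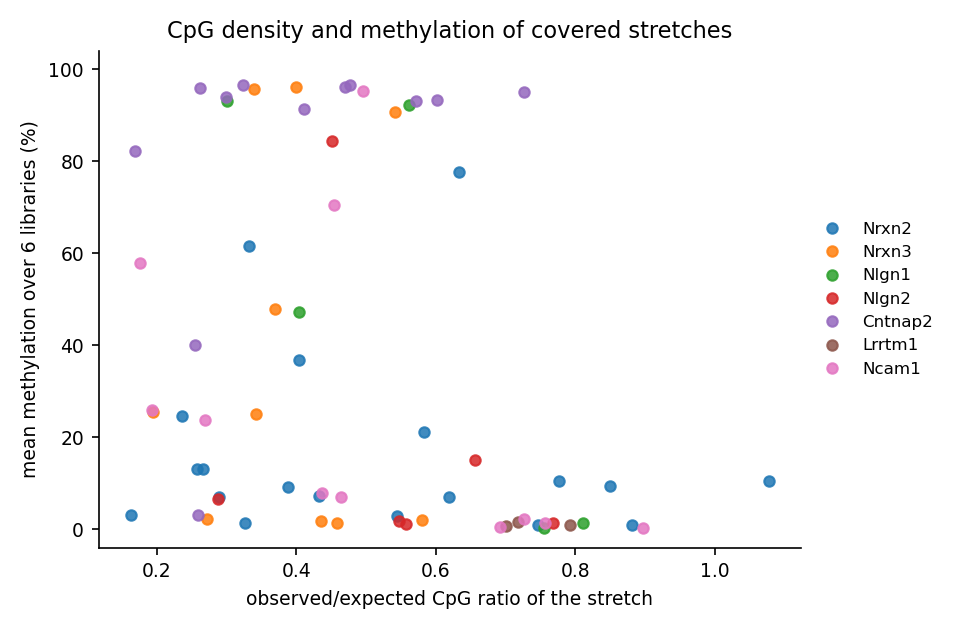
Mean methylation over the 6 libraries (y axis, %) against the observed to expected CpG ratio (x axis) for the 66 covered stretches, coloured by gene. The ratio is that of the stretch with 100 bp on each side. Stretches at ratios of 0.6 or more are mostly near 0, with Cntnap2 and an exon of Nrxn2 as high points.

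Between housing groups, 34 stretches were lower and 32 higher in ENR, against 53.8% lower among all, and none was called (limma, 0.0% of all 76712 that varied; adjusted p of at least 0.998). An unadjusted p under 0.05 was found in 4 of 66 stretches and in 4.10% of all. With 1 library left out at a time, the count in the 7 genes ran from 2 to 5. Groups did not overlap in 3 stretches that were lower in ENR, of Ncam1, Nlgn2 and Nrxn2, and in 3 that were higher, of Nrxn3, Cntnap2 and Nrxn2. Among all stretches, 5.25% and 3.58% were separated in these directions. The counts for the 7 genes were thus near those of the whole table.

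The lowest p-value belonged to the Ncam1 intron printed above, 203.1 kb behind the first start. Its 4 sites averaged 10.9%, 7.65% and 12.2% in STD and 2.94%, 4.29% and 3.96% in ENR. All ENR mice were below all STD mice, with a difference of -6.51 ± 1.60 points (SE; limma unadjusted p = 0.00458, adjusted p = 0.998). Leaving out 1 library at a time gave -7.81 to -5.55 points. In Nlgn2 the stretch with the lowest p-value lay upstream of the start and within start region 1, so that it is not separate from the result for that region. The 3 sites in the sequence printed above and 8 others averaged 1.77%, 2.61% and 2.10% in STD and 0.00%, 0.927% and 0.00% in ENR (-1.85 ± 0.583 points, unadjusted p = 0.0153, adjusted p = 0.998). The 8 others also belonged to Tmem256. With sites joined at up to 50 bp instead of 100, the piece of this stretch with the most sites differed by -0.754 points (limma unadjusted p = 0.394).

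The third was the Nrxn3 coding exon printed above, a stretch of 3 sites that also overlaps Gm37980. It had 86.5%, 98.1% and 89.6% in STD and 100% in all 3 ENR mice. The difference of 8.60 ± 3.17 points (limma unadjusted p = 0.0297, adjusted p = 0.998) was a step from highly to completely methylated. In Nrxn2 the stretch with the lowest p-value was an intron 4.64 kb behind the first start (chr19:6423335-6423396), with 6.50%, 15.0% and 22.8% in STD and 10.4%, 0.00% and 0.813% in ENR. The groups overlapped, and the difference was -11.03 ± 4.62 points (limma unadjusted p = 0.0478, adjusted p = 0.998). It was -7.00 points without STD replicate 3 (unadjusted p = 0.131) and -5.54 without both libraries numbered 3 (unadjusted p = 0.287). The stretches with the lowest p-values of the other 3 genes differed by 4.39 points in Cntnap2, -9.28 in Nlgn1 and 0.5004 in Lrrtm1, with unadjusted p = 0.139, 0.376 and 0.519 by limma. Their groups overlapped. The Nlgn1 difference was -2.41 points without ENR replicate 1, -3.96 without STD replicate 1 and -16.9 without both libraries numbered 3, and that of Cntnap2 was 6.60 without STD replicate 2. In Lrrtm1 it ran from -0.0123 to 1.14 with 1 library left out.

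At single sites, the study's limit of a difference over 25 percentage points was applied to the group means without a test. It was exceeded by 19 of the 696 sites (2.73%, against 1.94% of all sites). Of these, 15 were lower in ENR (2.16%, against 1.23% of all sites) and 4 were higher (0.575%, against 0.706%). Nrxn2 held 8 of the lower and 2 of the higher ones, Ncam1 4 and 1, Nrxn3 1 and 1, and Nlgn1 2 lower ones, while Nlgn2, Cntnap2 and Lrrtm1 had none. No site was called by limma (0.0% of the 615152 that varied; smallest adjusted p = 0.852), and 17 of 503 varying sites of the 7 genes had an unadjusted p under 0.05 against 2.68% of all varying sites.

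The excess of lower sites depended on the libraries numbered 3. Without ENR replicate 3, 8 sites were lower and 16 higher by more than 25 points (1.15% and 2.30% of the members, against 1.02% and 1.58% of all sites). Without both libraries numbered 3, there were 10 lower and 9 higher ones (1.44% and 1.29%, against 1.51% and 1.34% of all sites). Without STD replicate 3 alone, 13 were lower and 1 higher (1.87% and 0.144%, against 1.97% and 0.647%), so that the lower sites were again near the share of all sites. Leaving out STD replicate 1 or 2 gave 16 lower and 12 higher sites (2.30% and 1.72%, against 1.49% and 1.23% of all sites) or 18 and 14 (2.59% and 2.01%, against 1.53% and 1.22%). Leaving out ENR replicate 1 or 2 gave 23 and 10 (3.30% and 1.44%, against 2.40% and 1.02%) or 24 and 8 (3.45% and 1.15%, against 2.15% and 0.923%).

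Separate groups were found at 19 sites that were lower (2.34% of all sites) and 7 that were higher in ENR (1.65%), whatever the size of the difference. Of the 19 sites over 25 points, 7 had groups that did not overlap, 6 of them lower in ENR (0.516% of all sites) and 1 higher (0.294%). The largest difference was at the last CpG of the Nrxn2 intron printed above (chr19, position 6451918, - strand). STD mice had 60%, 73.1% and 48.3% and ENR mice 0.00%, 3.23% and 0.00%. The difference was -59.4 points (limma unadjusted p = 0.00366, adjusted p = 0.852; exact permutation p = 0.1, the smallest possible). The 3 other sites within 100 bp were lower in ENR by 20.7 to 27.0 points, so that the difference extended over the end of the stretch. At the opposite end, at position 6451738, the mean was higher in ENR by 33.4 points, with 47.3%, 18.4% and 0.00% in STD and 14.3%, 51.5% and 100% in ENR, and the mean over all 8 sites differed by -11.2 points (unadjusted p = 0.283).

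The second Nrxn2 site was in a coding exon (chr19, position 6481273, + strand), with 93.8%, 95.2% and 100% in STD and 56.5%, 78.6% and 76.5% in ENR (-25.8 points, unadjusted p = 0.00812, adjusted p = 0.852). Of its 5 neighbours within 100 bp, 2 were lower, and their mean was higher in ENR by 7.99 points. The neighbours of this cytosine thus did not share its direction as a group. Another 3 Nrxn2 sites with groups apart, named after their values were seen, were at positions 6531804 and 6531604 in coding exons and 6483313 in an intron. At 6531804 STD mice had 24.1%, 28.0% and 38.5% and ENR mice 3.13%, 7.14% and 0.00%, and at 6531604 they had 48.4%, 30.3% and 27.6% against 2.27%, 16.7% and 0.00%. The annotation places both also in Gm14964. A single library decided another site of these exons, at 6531545, with 93.3% in ENR replicate 1 and 0.00% to 7.69% in the other 5.

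In Ncam1 the named site lay in an intron (chr9, position 49576810, + strand), with 85.5%, 89.7% and 91.8% in STD and 72.2%, 60.7% and 39.0% in ENR (-31.7 points, unadjusted p = 0.0139, adjusted p = 0.852). No other covered site lay within 100 bp. In Nrxn3 the named site was intronic (chr12, position 88895480, + strand) and higher in ENR, with 29.2%, 33.3% and 5.0% in STD and 44.9%, 60% and 56.6% in ENR (31.3 points, unadjusted p = 0.0790, adjusted p = 0.852). Its only neighbour differed by -6.48 points. The named sites of Ncam1 and Nrxn3 thus had no neighbour that moved with them.

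**Figure D5:**
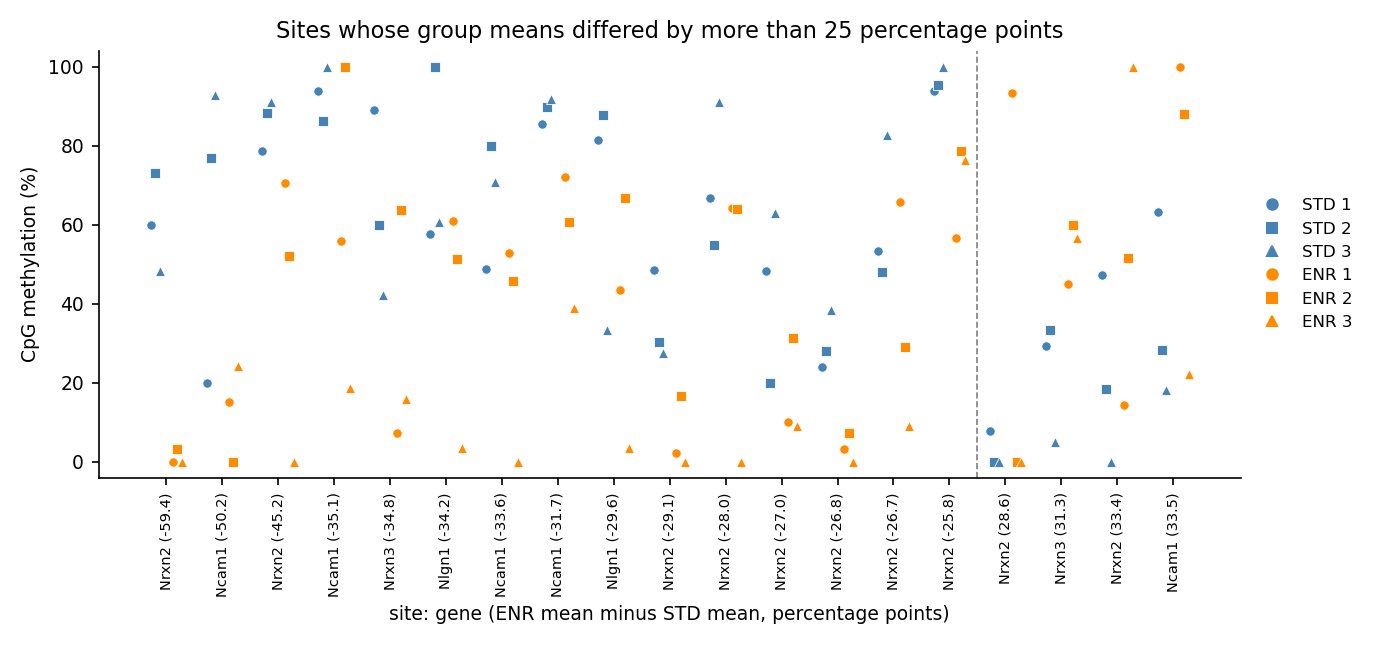
CpG methylation (y axis, %) in each library at the 19 sites whose group means differed by more than 25 percentage points, ordered by the difference, which is given beside the gene name. STD is blue, ENR is orange, and the dashed line separates 15 sites that were lower in ENR from 4 that were higher.

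The surrounding synaptic adhesion genes were described with a list of 66 genes in 4 families. At least 3 covered sites were found in 64 of them. None passed the test, 43 had a lower mean in ENR (67.2%, against 57.6% of all genes) and 21 a higher one, and the median difference was -0.415 points against -0.192 over all genes. Groups did not overlap in 2 lower ones (5.42% of all genes) and 1 higher one (3.04%), and 0 of the 64 had an unadjusted p under 0.05. By family, lower means were found in 18 of 21 further neurexin relatives and ligands, 8 of 12 contactins and contactin-associated genes, 7 of 10 immunoglobulin adhesion genes, and 10 of 21 phosphatase receptors and leucine-rich repeat partners. Without ENR replicate 3 only 23 of the 64 were lower (44.5% of all genes), and by family 10 of 21, 6 of 12, 2 of 10 and 5 of 21 in the same order. With quantile normalization 31 of the 64 were lower (43.1% of all genes). Without STD replicate 1 or 2 the counts were 35 and 33 of 64 (52.0% and 53.2% of all genes). With medians over sites 19 of the 64 were lower (29.5% of all genes). The prevalence of lower means in the list thus depended on several single libraries, on the scaling and on the summary over sites.

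Nlgn3, a neuroligin gene on the X chromosome, had 22 sites with 54.0%, 52.2% and 44.4% in STD and 54.6%, 50.8% and 33.0% in ENR. Its difference was -4.09 ± 6.29 points. It became 2.48 points without ENR replicate 3 and -0.693 without start regions. The start region of Nlgn3, named after its values were seen, had 3 sites, which are also part of the gene mean. STD mice had 48.0%, 32.4% and 52.5% and ENR mice 27.2%, 23.8% and 5.11% (-25.6 ± 8.49 points, limma unadjusted p = 0.0175, adjusted p = 0.999). All ENR mice were below all STD mice there, as in 5.69% of all start regions, at a start that was methylated to intermediate levels in these female mice.

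The lowest p-values among lower means belonged to Slitrk5, a leucine-rich repeat protein gene (2.37% in STD and 1.78% in ENR, unadjusted p = 0.122), Cntnap3 (96.2% and 91.97%, unadjusted p = 0.170) and the dystroglycan gene Dag1, whose product binds neurexins (4.18% and 3.18%, unadjusted p = 0.170). Among higher means they belonged to Cntnap5b (81.7% and 87.8%, unadjusted p = 0.113), Lrfn2 (39.4% and 43.4%, unadjusted p = 0.274) and Cntnap1, whose product sits beside the nodes of Ranvier (8.97% and 10.4%, unadjusted p = 0.281). The adjusted p by limma was 1.00 for Nlgn3 and for each of these 6 genes. The means were taken over 110 sites in Slitrk5, 6 in Cntnap3, 52 in Dag1, 20 in Cntnap5b, 51 in Lrfn2 and 96 in Cntnap1. Several of the differences in these genes rested on 1 library. The difference moved from -4.275 to -1.64 points in Cntnap3 without ENR replicate 2, from 6.085 to 3.27 in Cntnap5b and from 4.01 to 1.32 in Lrfn2 without STD replicate 3, and from 1.41 to 0.383 in Cntnap1 without STD replicate 1. In Dag1 it became -0.605 without STD replicate 2 and -0.612 without ENR replicate 3.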

How the data were processed

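The authors trimmed RRBS reads, aligned them to mm10 and kept cytosines with at least 10 reads in methylKit. The submitters' processing notes name Trim Galore 0.4.0, cutadapt 1.8.1, Bismark 0.16.1 and methylKit 1.5.2. The deposited table gives percent methylation per CpG cytosine and library, with no missing value and no read numbers, so the study's test on reads could not be run and sites weighed equally whatever their depth. The 7 genes, the gene list and the rules were chosen with earlier results of these data known.

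Sites were averaged per gene, per start region (1 kb each side of a start) and per covered stretch (sites up to 100 bp apart), each with at least 3 sites. Means and single sites were tested on the percentage scale with limma 3.58.1 in R 4.3.3 (lmFit, eBayes with a variance trend), fitted over all genes, regions, stretches or varying sites, with Benjamini-Hochberg adjustment over all of them. A call needed an adjusted p under 0.05 and, for sites, a difference over 25 percentage points. Single member values also had a two-sided exact permutation test over the 20 regroupings. The procedure was tested on simulated data. Of shifts of 60 and 90 points planted at 10000 sites, 8831 and 9979 were called, beside 876 and 1005 false calls. No shift of 25 points was planted at that many sites. Shifts planted at a very small share of the sites were not called at any of the sizes simulated. An absence of calls therefore does not show that single sites were alike. All 7 genes and their start regions were named, with the lowest-p stretch of each gene, up to 2 lowest-p sites per direction in each gene among those over 25 points with separate groups, and from the list Nlgn3 and the 3 lowest p-values per direction. Another gene of the list is counted with it but not reported here by itself. Start regions of cell type markers were used only to check the tissue. Sequences were read from the RefSeq copy of GRCm38.

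The replicate numbers of the labels were checked for pairing. Deviations of same-numbered libraries from their group means correlated at 0.157, 0.131 and 0.322 over genes and at 0.191, 0.124 and 0.331 over start regions. Each exceeded 0.1, although each library came from a different mouse and the labels state no shared litter, day or batch, so this pairing comes from the data alone. STD replicate 1 and ENR replicate 2 correlated nearly as well over genes (0.121). Alternatives covered the scale, variance model, normalization, summary, windows, thresholds, block and single libraries.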

Additional observations from a re-analysis of the deposited data

How the results depend on the processing

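No gene, start region, stretch or site of the 7 genes and no gene of the adhesion list was called under any alternative that was run, and the smallest adjusted p was 0.375, for a site. Without read numbers the precision of a site's value is unknown. With the replicate block, 0 features of the 7 genes and 0 list genes were called, with smallest adjusted p-values of 0.959 for genes, 0.950 for start regions, 0.956 for stretches and 0.882 for sites. Same-numbered libraries did not all correlate over 0.1 for stretches (0.115, 0.0619 and 0.228) or sites (0.0602, 0.0348 and 0.135). Directions of small differences (percentage points, ENR minus STD) often turned, and the cause was not tested. With quantile normalization the gene means of Nrxn2, Nrxn3, Nlgn2 and Lrrtm1 turned to 0.0873, 0.269, 0.274 and 0.0874, start regions 1 to 3 of Nlgn1 to 0.183, 0.0386 and 0.666, and first start regions of Cntnap2, Ncam1 and Nrxn2 to 1.20, 0.242 and 0.220. Without both libraries numbered 3, the gene means of Cntnap2 and Nrxn3 became 0.1002 and 0.0331, Nlgn1 region 3 became 3.14, Ncam1 region 1 became 0.0371, and Nrxn2 regions 2 and 7 became -3.16 and -0.0652. With medians over sites, Cntnap2 and Nrxn3 gave 1.40 and 0.373, Nlgn1 region 3 gave 5.44 and Nlgn2 region 2 gave -1.79. On the arcsine scale, Nlgn1 region 3 gave 0.0214 and Nrxn2 region 2 gave -0.00372. With strands averaged per CpG, region 1 gave 0.0375 in Cntnap2 and 0.16 in Ncam1. Nlgn2 gave 1.03 with sites of 10% to 90% and 0.0740 without 1 kb upstream.

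With 1 library left out at a time, gene means ranged from -1.64 to 1.23 in Nrxn3, -0.688 to 0.0648 in Nlgn2, -3.22 to 0.423 in Ncam1 and -8.33 to 2.48 in Nlgn3. Start regions ranged from -0.863 to 0.728, -0.959 to 0.207 and -3.09 to 4.81 in Nlgn1 (1 to 3), -2.16 to 1.08 in Cntnap2, -0.352 to 0.354 in Lrrtm1, -0.274 to 0.0483 in Ncam1 and -0.752 to 0.0915, -4.40 to 4.04 and -0.181 to 0.551 in Nrxn2 (1, 2 and 7), without a change of direction from -0.864 to -0.519 and 0.309 to 7.27 in Nlgn2 (1 and 2) and 0.718 to 4.22 and 0.111 to 0.779 in Nrxn3 (1 and 5), and the Lrrtm1 stretch from -0.0123 to 1.14. The number of sites over the limit ranged from 14 to 33, and was 37 with a limit of 20 points, 3 with 40 and 7 when groups had to be separate. The named sites, and the named stretches other than that of Lrrtm1, kept their direction under each alternative run for them, as did Nlgn2 region 1 except with medians over sites, where the difference was 0. With 1 library left out, differences ranged from -65.5 to -53.1 and -29.8 to -18.8 at the Nrxn2 sites 6451918 and 6481273, -39.2 to -22.6 at the Ncam1 site, 22.6 to 36.8 at the Nrxn3 site and 6.17 to 11.9 in the Nrxn3 stretch. Without start regions the gene means differed by -4.45 in Nlgn1, -3.26 in Ncam1, -1.38 in Nrxn3, -1.215 in Nrxn2, -0.679 in Lrrtm1, -0.546 in Nlgn2, -0.693 in Nlgn3 and -4.14 in Slitrk5 (limma unadjusted p = 0.0377). With sites of 10% to 90% they differed by -7.07 in Cntnap2, -12.95 in Slitrk5, 10.35 in Cntnap5b, 5.57 in Cntnap1 and 6.87 in Lrfn2 (10.95 with medians over sites). Smaller differences were -0.259 in Slitrk5 with quantile normalization and 0.673 in Cntnap1 with strands averaged per CpG. With medians over sites the differences of Slitrk5, Dag1 and Cntnap1 were 0.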
